A study of Mus musculus with 12 samples.

Results

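The 44 genes described here encode the core autophagy machinery and its cargo receptors. They were taken by name from the deposited expression table, in which Ensembl identifiers were matched to mouse symbols, and all 44 were found among its 28689 genes. RNA was sequenced from mouse lung endothelial cells (MLECs) in 12 libraries, 6 of the CTR and 6 of the dKO genotype. The dKO mice were VE-CAD-CreERT2+/Sp1 fl/fl/Sp3 fl/fl, so that tamoxifen removes the transcription factors Sp1 and Sp3 from cells in which the VE-Cadherin promoter and enhancer drive the Cre recombinase. The CTR mice were littermates without Cre, VE-CAD-CreERT2-/Sp1 fl/fl/Sp3 fl/fl, and received tamoxifen too; the labels call this genotype WT. The mice were adult males. Their cells were selected with beads against CD31, cultured, and selected again against intercellular adhesion molecule 2. How many mice stand behind a library is not given, so p-values measure only the spread between libraries.

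Autophagy delivers cytoplasmic material to lysosomes. The ULK1 kinase complex and a class III phosphatidylinositol 3-kinase complex start a membrane, the phagophore, which grows from ATG9 vesicles and lipid moved from the endoplasmic reticulum. Conjugating enzymes attach ATG8 proteins (the LC3 and GABARAP families) to this membrane, cargo receptors bind them, and the closed autophagosome fuses with a lysosome. In endothelial cells the pathway takes part in the turnover of mitochondria and in the response to oxidative and shear stress.

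Levels are given as FPKM, the fragments of a library that fall on a gene, per kilobase of the gene and scaled to the total of the library. Differences are log2 fold changes of FPKM + 1, dKO over CTR, with their standard error (SE), from limma. The fit took in the 12467 genes that reached 1 FPKM in 6 libraries or more. A gene was called at a Benjamini-Hochberg adjusted p under 0.05. Libraries held between 15523054 and 17938286 fragments on genes, and the members between 131 (for Atg16l2) and 33944 (for Sqstm1) fragments in a library. Sp1 lay between 19.4 and 23.7 FPKM in CTR libraries and between 8.42 and 12.1 FPKM in dKO libraries, without overlap. Sp3 lay between 24.2 and 31.1 FPKM in CTR and between 22.5 and 26.9 FPKM in dKO, and it was not called (log2 fold change −0.14, limma adjusted p = 0.0902), although it was without CTR replicate 6 (−0.18, limma adjusted p = 0.0328). These values cover whole genes, so fragments on deleted exons were not separated.

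Endothelial markers were present in every library, with 12 marker genes summing to between 217 and 339 FPKM in CTR and between 396 and 541 FPKM in dKO (10 of 12 called, all higher). Macrophage markers were also present in both groups and differed more. Their 12 genes summed to between 820 and 1380 FPKM in CTR and between 2296 and 5060 FPKM in dKO, with 11 called higher and Marco called lower, and none of them was at 0 in a group. Fibroblast markers summed to between 2122 and 2689 FPKM in CTR and between 820 and 1645 FPKM in dKO, with 3 called lower and 1 higher of 5 tested. Of the lymphocyte and other leukocyte markers, which summed to between 1.76 and 5.17 FPKM in CTR and between 6.64 and 14.1 FPKM in dKO, the 2 tested (Ptprc and S100a8) were called higher, and Cd3e and Cd8a were listed at 0 in all CTR libraries. Mesothelial markers summed to between 14.5 and 23.9 FPKM in CTR and between 28.1 and 88.5 FPKM in dKO, with 3 of 4 called higher. Smooth muscle and pericyte markers (2 of 5 tested called, both higher) and lung epithelial markers (1 of 6, higher) overlapped between the groups in their sums, and 6 retinal markers summed to at most 0.529 FPKM in a library. In such bulk samples, fewer cells of a type and less RNA per cell cannot be told apart. What part these other cell types have in the changes below was not tested.

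Most of the 44 genes differed little between dKO and CTR MLECs. All 44 passed the filter on low values. Of these, 14 (31.8%) were called, 7 higher and 7 lower in dKO, while 53.1% of all genes tested were called, 20.4% higher and 32.6% lower. The 7 that rose were Atg7, Gabarap, Bnip3l, Atg4a, Uvrag, Gabarapl2 and Atg2a, and the 7 that fell were Epg5, Vmp1, Ncoa4, Atg10, Rb1cc1, Stx17 and Atg4b. With median-of-ratios scaling, 9 members were called higher and 6 lower, and the share of higher genes among all calls moved from 38.5% to 51.6%.

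The changes were small. The median log2 fold change of the 44 genes was −0.021 (−0.10 over all genes tested), and the median of its absolute size was 0.14 (0.27 over all genes tested). A change of more than 1.5-fold was found for 4 members, of which 3 rose (Atg7, Gabarap and Bnip3l) and 1 fell (Epg5). Of all genes tested, 17.9% passed this limit, 8.92% higher and 8.98% lower. Gabarap and Bnip3l lay close to the limit, and only Atg7 and Epg5 passed it after quantile normalization, after rescaling to TPM, or without CTR replicate 1, CTR replicate 3, CTR replicate 6 or dKO replicate 6. Without dKO replicate 4, Bnip3l alone dropped below it, which left 3 members. The limit in the study's methods, an absolute log2 fold change over 1.5, was reached by 1.98% of all genes tested. No member (0 of 44) reached it with limma or with any of the alternatives run, limma-voom and the exact permutation test among them. An unadjusted limma p under 0.05 was found for 17 members. Of all genes tested, 53.1% were under 0.05 even after adjustment.

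For 11 members the 6 dKO libraries all lay on one side of the 6 CTR libraries, 5 above them and 6 below, as for 27.4% of all genes tested. Such a separation fixes the exact two-sided permutation p of each of these 11 at 0.00216, the smallest that 6 libraries against 6 allow. This p therefore restates the separation and adds nothing to it. Within a group the members varied less at the median, with a median coefficient of variation of 9.51% in CTR and 9.64% in dKO, beside 13.8% and 14.2% over all genes tested.

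**Figure D1:**
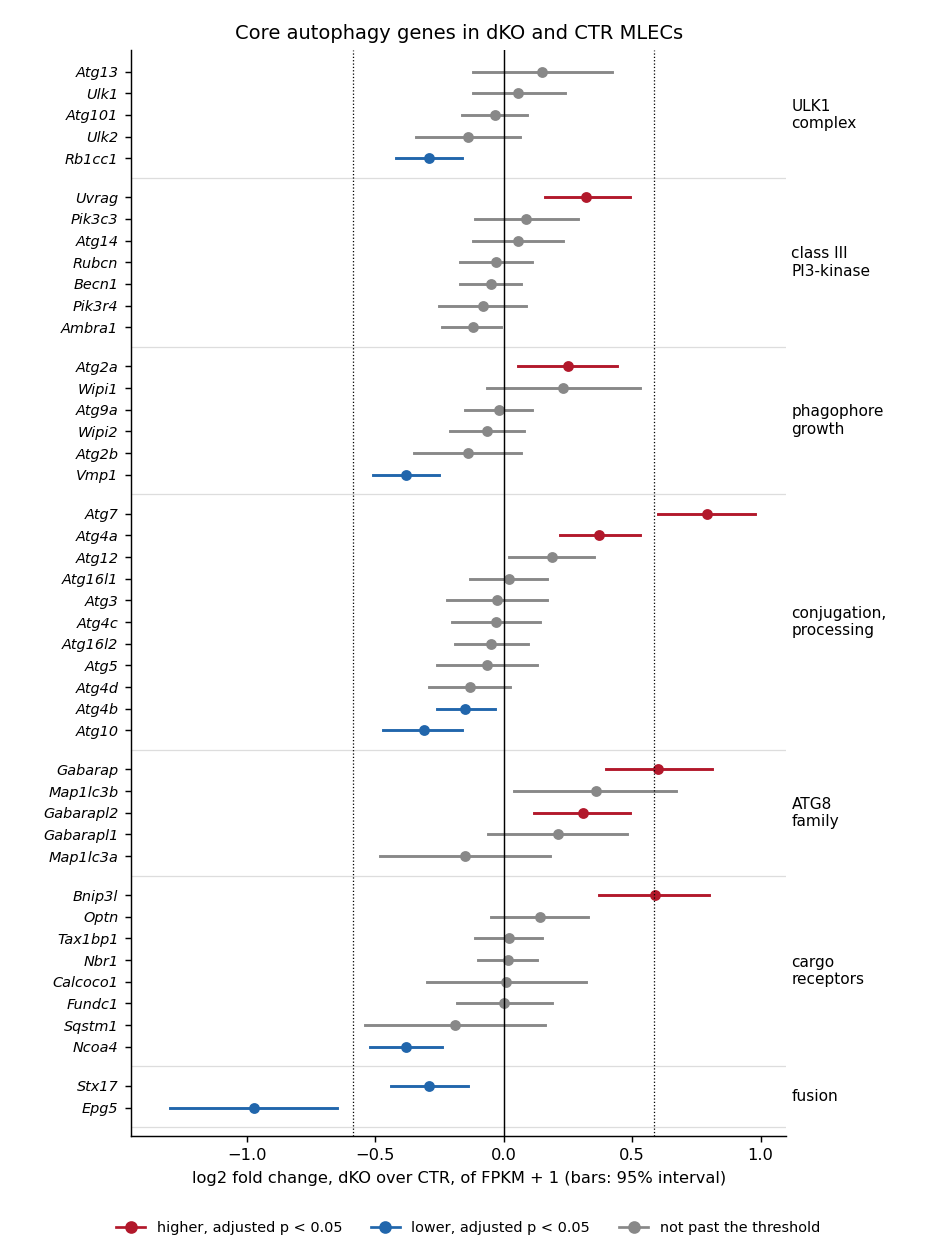
The log2 fold change (dKO over CTR, of FPKM + 1) of each of the 44 genes, ordered within 7 roles, with bars for the 95% confidence interval and dotted lines at a change of 1.5-fold. Epg5 at −0.97 and Atg7 at 0.79 lie farthest from 0, and most other intervals lie inside the dotted lines.

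Sp1 and Sp3 bind GC boxes, so the promoters of the members were read for GGGCGG on both strands. RefSeq windows (GRCm38.p6, 250 bases before to 50 after the start of transcription) were matched by symbol for 36 of the 44 genes. For Pik3c3, Map1lc3a, Bnip3l, Epg5, Atg16l1, Rb1cc1, Atg12 and Becn1 none was matched. Matched to GRCm39, all windows but 1 had their start within 300 bases of an annotated start of their gene. The exception was that of Atg7, which lay 28013 bases inside the gene and 9066 bases from the nearest annotated start, and it is not shown. The start of the Gabarap window lay 308 bases inside the gene and 193 bases from the nearest annotated start. That window thus lies wholly inside the gene, and the bases before the gene's 5′ end were not read. On each side, 1 window without and 1 with GC boxes are given. The windows shown are those of genes that rose (Gabarap, Uvrag) and of genes that fell (Vmp1, Stx17). They are written from 5′ to 3′ on the strand of the gene, with GGGCGG or its complement in capitals. The Gabarap window is chr11:69991120-69991419 (plus strand) and that of Uvrag chr7:99141095-99141394 (minus strand). The Vmp1 window nearest to the 5′ end of the gene is chr11:86683787-86684086 (minus strand), and that of Stx17 is chr4:48124669-48124968 (plus strand).
Gabarap: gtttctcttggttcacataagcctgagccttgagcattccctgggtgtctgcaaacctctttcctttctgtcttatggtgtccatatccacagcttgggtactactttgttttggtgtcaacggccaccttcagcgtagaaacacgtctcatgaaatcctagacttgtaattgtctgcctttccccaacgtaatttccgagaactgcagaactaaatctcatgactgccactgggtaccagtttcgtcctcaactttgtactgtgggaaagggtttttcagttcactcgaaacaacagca
Uvrag: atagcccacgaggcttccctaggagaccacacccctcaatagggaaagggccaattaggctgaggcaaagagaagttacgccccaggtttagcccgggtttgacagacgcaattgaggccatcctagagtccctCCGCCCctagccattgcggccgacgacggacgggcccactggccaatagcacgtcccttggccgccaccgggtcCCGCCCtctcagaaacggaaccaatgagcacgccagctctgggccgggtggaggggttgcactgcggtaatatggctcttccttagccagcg
Vmp1: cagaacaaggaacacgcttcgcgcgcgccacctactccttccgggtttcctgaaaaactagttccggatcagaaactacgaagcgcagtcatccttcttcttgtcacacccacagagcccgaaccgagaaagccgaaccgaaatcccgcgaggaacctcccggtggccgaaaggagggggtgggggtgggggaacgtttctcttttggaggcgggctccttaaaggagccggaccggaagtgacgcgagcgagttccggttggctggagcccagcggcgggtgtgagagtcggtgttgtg
Stx17: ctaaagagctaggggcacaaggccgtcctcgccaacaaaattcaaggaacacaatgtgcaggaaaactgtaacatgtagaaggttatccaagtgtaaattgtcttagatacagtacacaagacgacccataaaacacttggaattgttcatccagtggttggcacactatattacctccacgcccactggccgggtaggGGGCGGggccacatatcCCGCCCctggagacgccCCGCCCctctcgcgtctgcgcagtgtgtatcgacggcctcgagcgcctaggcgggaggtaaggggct

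GC boxes were present and absent on both sides. Of the genes that rose, Gabarap and Atg2a held 0 (Gabarap in a window that does not reach the bases before the gene). Uvrag, Gabarapl2 and Atg4a held 2 each (Atg4a in 1 of its 2 windows). Of the genes that fell, Vmp1 held 0 in any of its 3 windows, Ncoa4 held 1 in 1 of its 3 windows, Atg10 held 2, Stx17 held 3 and Atg4b held 4. G and C made up 45.7% of the Gabarap window, 61.7% of the Uvrag window, 60.3% of the Vmp1 window shown and 54.7% of the Stx17 window. Among all members with a window, 25 of 36 (69.4%) held at least 1 GC box, or 25 of 35 (71.4%) without Atg7. The share was 70.0% over the 9095 tested genes with a window, so the members stood near other expressed genes. Over all 32851 windows it was 35.7%, but this share counts single windows and not genes, so it cannot be set beside the others. A match was found for 3 of 6 members that rose (3 of 5 without Atg7), 4 of 5 that fell and 18 of 25 that were not called. Wipi1, not called, held the most, with 9. Genes with several windows (7 members) were counted by the window with the most matches. A window from 100 bases before the start gave 19 of 36 members (52.8%), beside 60.3% of the tested genes.

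Of the ULK1 initiation complex, 1 of 5 genes (20%) was called, beside 53.1% of all genes tested. Rb1cc1, which encodes the scaffold FIP200, fell from between 8.35 and 9.12 FPKM (median 8.44) in CTR to between 5.85 and 7.50 FPKM (median 6.92) in dKO. Its log2 fold change was −0.29 (SE 0.059, limma adjusted p = 0.00122) and the groups did not overlap. Ulk1 encodes the kinase that AMPK phosphorylates. The study reports its protein from human umbilical vein endothelial cells (HUVECs), not from CTR and dKO MLECs. Ulk1 lay between 7.39 and 10.6 FPKM (median 8.51) in CTR and between 8.17 and 9.93 FPKM (median 9.14) in dKO. All dKO values of Ulk1 lay inside the CTR range. In GRCm39, Ulk1 spans chromosome 5, 110931496 to 110957995, on the minus strand. Its log2 fold change was 0.056 (SE 0.084, 95% interval −0.12 to 0.24, limma adjusted p = 0.592). The second kinase Ulk2 (−0.14), the adaptor Atg13 (0.15) and its partner Atg101 (−0.035) were not called either. About 32.8% of the exon bases of Atg13 overlap Arhgap1 on the other strand, and the use of strand in counting is not stated.

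The class III PI3-kinase complex makes the lipid signal that recruits later factors. Of its 7 genes, 1 (14.3%) was called, beside 53.1% of all genes tested. This was Uvrag, a subunit found in place of ATG14 in the endosomal form of the complex. Uvrag lay between 5.52 and 6.59 FPKM (median 5.73) in CTR and between 6.95 and 9.64 FPKM (median 7.21) in dKO, without overlap. It rose by 0.32 on the log2 scale (SE 0.077, limma adjusted p = 0.00344), with its highest value in dKO replicate 1. In GRCm39, Uvrag spans chromosome 7, 98533079 to 98790496, on the minus strand. The catalytic subunit Pik3c3 (0.089), its partner Pik3r4 (−0.082), the scaffold Becn1 (−0.051), the autophagy subunit Atg14 (0.055) and the inhibitor Rubcn (−0.030) were not called. Ambra1, a positive regulator of the complex, was at −0.12 with a limma adjusted p of 0.0628 (0.0201 to 0.514 over the alternatives). Becn1 shares 43.8% of its exon bases with Cntd1 on the other strand.

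Among the 6 genes of phagophore growth, 1 rose and 1 fell (33.3% called, beside 53.1% of all genes tested). Vmp1, a scramblase of the endoplasmic reticulum and the third most abundant member, lay between 72.1 and 82.1 FPKM (median 73.7) in CTR. In dKO it lay between 53.1 and 62.7 FPKM (median 57.2), below every CTR library. In GRCm39, Vmp1 spans chromosome 11, 86474269 to 86574853, on the minus strand. Its mean fell to 0.767 of the CTR mean, with a log2 fold change of −0.38 (SE 0.059, limma adjusted p = 0.000191). Atg2a, a lipid transfer protein, was called higher by a small margin (log2 fold change 0.25, SE 0.088, limma adjusted p = 0.0308, 0.00647 to 0.0639 over the alternatives), with groups that overlapped. Its limma adjusted p was between 0.0506 and 0.0639 without CTR replicate 1, 2, 3 or 6 or without dKO replicate 3, 5 or 6. Its paralog Atg2b was at −0.14 and not called. The phosphoinositide-binding Wipi1 (0.23) and Wipi2 (−0.064) and the scramblase Atg9a (−0.018), which rides on vesicles to the phagophore, were not called. In exon bases, Atg9a shares 25.2% with Gm29253 on its own strand.

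Conjugation and processing held 11 genes, of which 2 rose and 2 fell (36.4% called, beside 53.1% of all genes tested). Atg7, the E1-like enzyme at the head of both the ATG8 and the ATG12 conjugation routes, showed the largest rise of all members. Atg7 lay between 4.63 and 6.84 FPKM (median 5.52) in CTR and between 9.27 and 11.4 FPKM (median 9.87) in dKO. The lowest dKO library was thus above the highest CTR library. In GRCm39, Atg7 spans chromosome 6, 114620044 to 114837576, on the plus strand. Its mean was 1.85 times the CTR mean, with a log2 fold change of 0.79 (SE 0.086, limma adjusted p = 1.34e-05). By mean FPKM it stood 37th of the 44 genes in CTR and 21st in dKO.

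Atg4a, 1 of 4 proteases that trim ATG8 proteins, lay between 6.60 and 7.76 FPKM (median 7.24) in CTR and between 8.86 and 11.8 FPKM (median 9.34) in dKO. It rose without overlap, by 0.37 on the log2 scale (SE 0.072, limma adjusted p = 0.000911). The gene spans chromosome X, 139854582 to 139947293, on the plus strand (GRCm39). Atg4b, the protease with the broadest activity on ATG8 proteins, fell slightly (log2 fold change −0.15, SE 0.053, limma adjusted p = 0.0332, 0.0077 to 0.305 over the alternatives). Its 6 dKO libraries, at 5.41 to 6.31 FPKM, lay below its 6 CTR libraries, at 6.38 to 6.87 FPKM. That call was lost (limma adjusted p 0.0502 to 0.0752) without CTR replicate 3, 5 or 6 or without dKO replicate 2, 3 or 4, and with quantile normalization (0.272) or median-of-ratios scaling (0.305). Atg4c (−0.031) and Atg4d (−0.13) were not called. Atg10, the E2-like enzyme that joins ATG12 to ATG5, was lower in each dKO library than in each CTR library, with a log2 fold change of −0.31 (SE 0.072, limma adjusted p = 0.00286). The other E2-like enzyme Atg3 (−0.024), Atg5 (−0.063) and the ATG16-type partners Atg16l1 (0.020) and Atg16l2 (−0.049) were not called. Atg12 was at 0.19 with a limma adjusted p of 0.0566 (0.00496 to 0.142 over the alternatives). Kri1 on the other strand overlaps 30.2% of the exon bases of Atg4d.

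**Figure D2:**
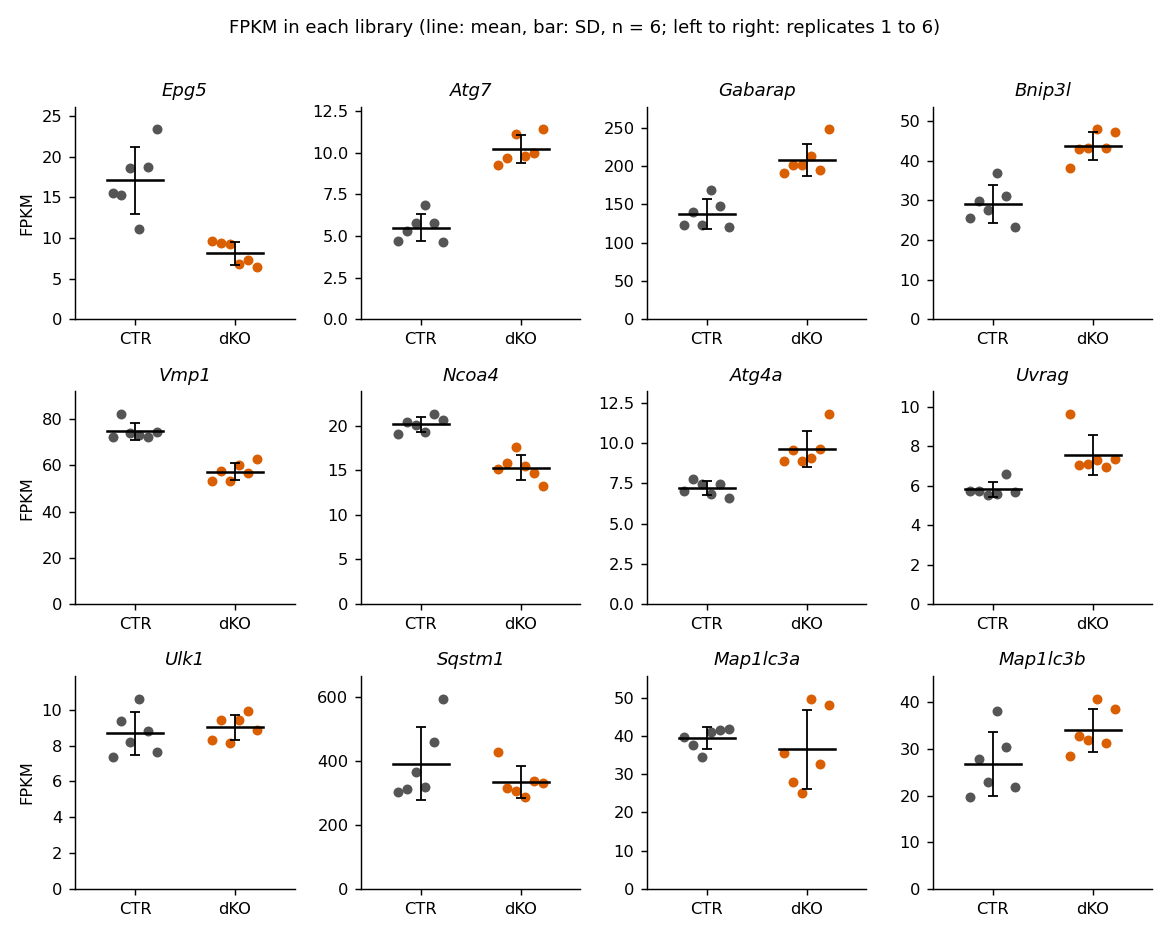
FPKM in each of the 12 libraries for the 8 members with the largest called changes and for Ulk1, Sqstm1, Map1lc3a and Map1lc3b, each panel from 0 on its own linear scale, with the mean as a line and the SD as a bar (n = 6). The groups do not overlap in the upper 8 panels and overlap in the lower 4.

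The ATG8 family, the proteins that mark the autophagosome, showed the highest median log2 fold change of the roles, 0.31 over 5 genes. Of these, 2 (40%) were called, both higher, beside 53.1% of all genes tested called and 20.4% called higher. Unadjusted limma p was under 0.05 for 3 of the 5. Gabarap, the family's most abundant gene by FPKM, lay between 121 and 169 FPKM (median 131) in CTR and between 191 and 248 FPKM (median 201) in dKO. The groups did not overlap. The gene lies on chromosome 11, 69881888 to 69886109, plus strand (GRCm39). The mean was 1.52 times that of CTR, with a log2 fold change of 0.60 (SE 0.095, limma adjusted p = 0.000206). Gabarapl2 (GATE-16) rose by 0.31 (SE 0.086, limma adjusted p = 0.00916), with 4 of 6 dKO libraries above all CTR libraries. Gabarapl1 was at 0.21 and not called, and 31.0% of its exon bases overlap 1700101I11Rik on the other strand.

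The LC3 genes, whose proteins serve as the usual readout of autophagosomes, were not called. Map1lc3b lay between 19.7 and 38.1 FPKM (median 25.4) in CTR and between 28.5 and 40.7 FPKM (median 32.4) in dKO, with overlapping groups. Its locus is chromosome 8, 122317100 to 122325499, plus strand (GRCm39). Its log2 fold change was 0.36 (SE 0.145, 95% interval 0.042 to 0.67, limma adjusted p = 0.0538). The adjusted p of Map1lc3b ranged from 0.00694 to 0.115 over the alternatives, and it was 0.00694 without CTR replicate 4, which held its highest CTR value, 0.0485 without CTR replicate 5 and 0.0398 without dKO replicate 1. Reads of Map1lc3b may be split with Gm6055, 99.6% identical over 282 bases. Reads that fit both may also have been dropped, since the authors extracted uniquely aligned reads. The fragments of Map1lc3b and its copies together numbered 24573 summed over the 6 CTR libraries and 31851 over the 6 dKO libraries. Map1lc3a lay between 34.4 and 41.9 FPKM (median 40.5) in CTR and between 25.0 and 49.6 FPKM (median 34.1) in dKO. The dKO libraries of Map1lc3a thus spread on both sides of the CTR range, 2 above it and 3 below. The locus of Map1lc3a is chromosome 2, 155118217 to 155119998, plus strand (GRCm39). Its log2 fold change was −0.15 (SE 0.151, 95% interval −0.48 to 0.18, limma adjusted p = 0.416).

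The make-up of the family shifted with Gabarap. Gabarap supplied between 50.1% and 53.2% (median 52.3%) of the summed FPKM of the 5 genes in CTR libraries and between 55.9% and 62.2% (median 60%) in dKO libraries, without overlap. The share of Map1lc3a had a median of 14.6% (12.6% to 17.4%) in CTR and 10.6% (7.70% to 13%) in dKO. Map1lc3b stayed near its share, with medians of 10.2% and 9.66%. The summed FPKM of the 5 genes lay between 232 and 327 in CTR and between 316 and 416 in dKO. These shares are of transcripts and carry no measure of lipid-bound protein. They also rest on the gene lengths used for FPKM. Over the 6 CTR libraries Gabarap held 25967 fragments and Map1lc3b 20675, at mean FPKM of 137 and 26.8. Gm6055, the near-identical copy of Map1lc3b, is not counted in the shares. Its mean was 100 FPKM in CTR and 141 FPKM in dKO.

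**Figure D3:**
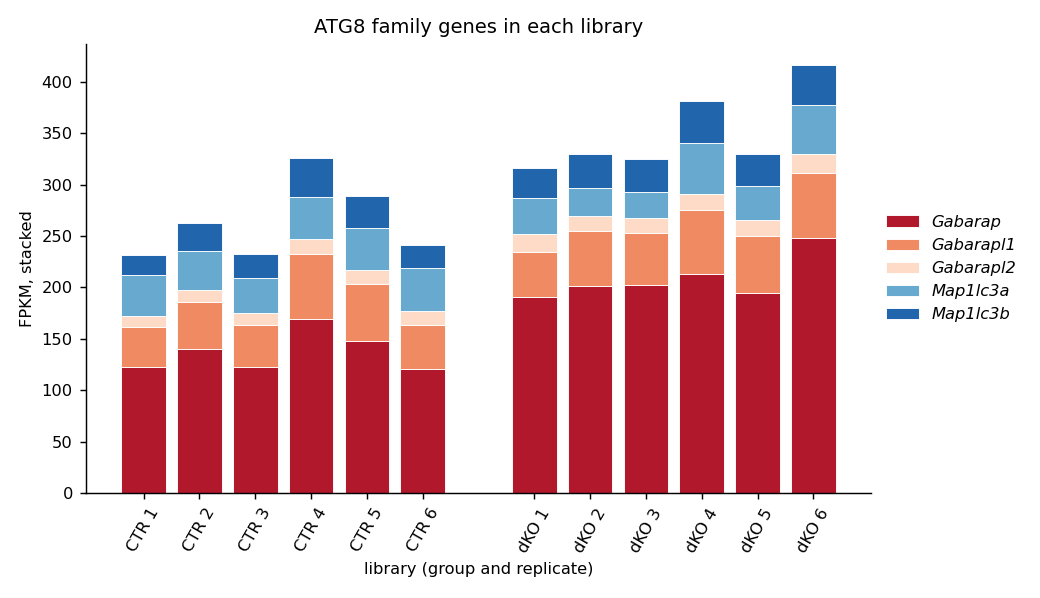
Stacked FPKM of the 5 ATG8 family genes in each library, with CTR replicates 1 to 6 on the left and dKO replicates 1 to 6 on the right. Gabarap forms the largest block in each library, at a median of 52.3% of the stack in CTR and 60% in dKO.

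Of 8 cargo receptors, 1 rose and 1 fell (25% called, beside 53.1% of all genes tested). Bnip3l (NIX), a mitophagy receptor of the outer mitochondrial membrane, lay between 23.3 and 37.0 FPKM (median 28.7) in CTR and between 38.1 and 47.9 FPKM (median 43.2) in dKO. Its lowest dKO library was just above its highest CTR library. The gene lies on chromosome 14, 67222678 to 67246356, minus strand (GRCm39). The mean was 1.51 times that of CTR, with a log2 fold change of 0.59 (SE 0.1, limma adjusted p = 0.000366). The copy Bnip3l-ps (99.4% identical over 657 bases) may share its reads, or reads that fit both may have been dropped. The fragments of Bnip3l and this copy together numbered 12423 over the 6 CTR and 18894 over the 6 dKO libraries. Fundc1, another mitophagy receptor, was at 0.0022 and not called.

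Ncoa4, the receptor that carries ferritin to the autophagosome, lay between 19.1 and 21.3 FPKM (median 20.3) in CTR and between 13.2 and 17.6 FPKM (median 15.3) in dKO. Every dKO library lay below every CTR library. Ncoa4 lies on chromosome 14, 31881822 to 31902234, plus strand (GRCm39). The log2 fold change of Ncoa4 was −0.38 (SE 0.065, limma adjusted p = 0.000376). Ncoa4-ps, 99.9% identical over 1878 bases, may share its reads, or reads that fit both may have been dropped. Together Ncoa4 and Ncoa4-ps held 23676 fragments over the 6 CTR and 18052 over the 6 dKO libraries.

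Sqstm1 encodes p62, the ubiquitin-binding receptor that is itself degraded by autophagy and whose protein the study measures in HUVECs. Sqstm1 was the most abundant member in both groups, between 302 and 594 FPKM (median 342) in CTR and between 289 and 429 FPKM (median 323) in dKO. CTR replicates 6 and 5 held its highest values, 594 and 460 FPKM, and dKO replicate 1 held the highest of its group. Sqstm1 lies on chromosome 11, 50089572 to 50107684, minus strand (GRCm39). The groups overlapped, and the log2 fold change of Sqstm1 was −0.19 (SE 0.162, 95% interval −0.54 to 0.16, limma adjusted p = 0.327). The other ubiquitin-linked receptors Nbr1 (0.016), Optn (0.14) and Tax1bp1 (0.020) and the receptor Calcoco1 (0.011) were not called. On the other strand, Mrnip overlaps 17.2% of the exon bases of Sqstm1.

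Both of the 2 members listed under autophagosome-lysosome fusion fell, while 32.6% of all genes tested were called lower. These 2 genes do not stand for the whole step, since Snap29, the partner of STX17, rose (see the other autophagy genes below). Epg5, a tether that joins autophagosomes to late endosomes and lysosomes, showed the largest change of the 44 genes. It lay between 11.1 and 23.4 FPKM (median 17.1) in CTR and between 6.45 and 9.59 FPKM (median 8.26) in dKO. Although the CTR libraries of Epg5 spread widely, the lowest of them was above the highest dKO library. Epg5 lies on chromosome 18, 77981637 to 78078240, plus strand (GRCm39). Its mean fell to 0.474 of the CTR mean, with a log2 fold change of −0.97 (SE 0.153, limma adjusted p = 0.000196). Stx17, the SNARE of the closed autophagosome, lay between 8.25 and 10.1 FPKM (median 8.95) in CTR and between 6.36 and 8.26 FPKM (median 7.40) in dKO. The groups of Stx17 touched, with 5 of 6 dKO libraries below all CTR libraries. Its log2 fold change was −0.29 (SE 0.070, limma adjusted p = 0.00395), and its promoter window, shown above, held 3 GC boxes.

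Members shared high and low libraries within a group. Of the 6 CTR libraries, replicate 4 held the highest value of 21 members (47.7%), among them Gabarap, Map1lc3b, Atg7 and Bnip3l, while it held the highest value of 25.8% of all genes tested. CTR replicate 1 held the lowest value of 19 members (43.2%, beside 22.8% of all genes tested), and CTR replicate 6 that of 14 (31.8%, beside 24.8%). Of the dKO libraries, replicate 1 held the lowest value of 16 members (36.4%, beside 20.3%), with Gabarap, Map1lc3b, Atg7 and Bnip3l again among them. Sqstm1 and Epg5 were highest of the CTR libraries in replicate 6 and highest of the dKO libraries in replicate 1.

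Beyond the core, 42 other autophagy genes were listed, of which 37 passed the filter. Of these 37, 22 (59.5%) were called, 18 higher and 4 lower in dKO, beside 53.1% of all genes tested (20.4% higher and 32.6% lower). The median log2 fold change was 0.15. In this list 4 genes rose by more than 1.5-fold, as did 8.92% of all genes tested. Irgm1, an interferon-inducible GTPase tied to autophagy, rose from between 3.84 and 4.75 FPKM in CTR to between 8.64 and 21.3 FPKM in dKO (log2 fold change 1.45, SE 0.187). Retreg1 (FAM134B), a receptor for turnover of the endoplasmic reticulum, rose by 0.74 (SE 0.210), with overlapping groups (4.84 to 14.6 FPKM in CTR, 11.1 to 18.7 FPKM in dKO). Bnip3, the mitophagy receptor closest to Bnip3l, rose by 0.71 (SE 0.109), beside 0.59 for Bnip3l. Snap29, the SNARE that pairs with STX17, rose by 0.68 (SE 0.072), while Stx17 itself fell. The 4 that fell were Phb2, Hdac6, Wdr45b and Ykt6, with log2 fold changes between −0.34 and −0.14.

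Of 29 upstream kinase and TFEB regulators, all of which passed the filter, 13 (44.8%) were called, 6 higher and 7 lower, beside 53.1% of all genes tested (20.4% higher and 32.6% lower). The list moved both ways, with a median log2 fold change of −0.020. Sesn2 and Ddit4 fell by more than 1.5-fold, as did 8.98% of all genes tested. They are both stress-induced inhibitors of mTORC1 signalling. Sesn2 lay between 26.1 and 41.7 FPKM in CTR and between 15.4 and 19.9 FPKM in dKO (log2 fold change −0.88, SE 0.108, limma adjusted p = 3.23e-05). Ddit4 lay between 114 and 136 FPKM in CTR and between 59.6 and 94.1 FPKM in dKO (−0.74, SE 0.102, limma adjusted p = 8.07e-05). Neither gene's groups overlapped. Of the AMPK catalytic subunits, which act on ULK1, Prkaa1 was at −0.11 and not called (limma adjusted p = 0.177). The other, Prkaa2, rose by 0.34 (SE 0.121, limma adjusted p = 0.0319), and its groups overlapped too. Tfeb, a transcription factor for autophagy and lysosomal genes, rose by 0.44 (SE 0.133, limma adjusted p = 0.0138). Its groups overlapped (1.29 to 3.36 FPKM in CTR, 2.74 to 4.05 FPKM in dKO). In the same list, Tfe3 (0.0022) and Mitf (0.22) were not called.

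**Figure D4:**
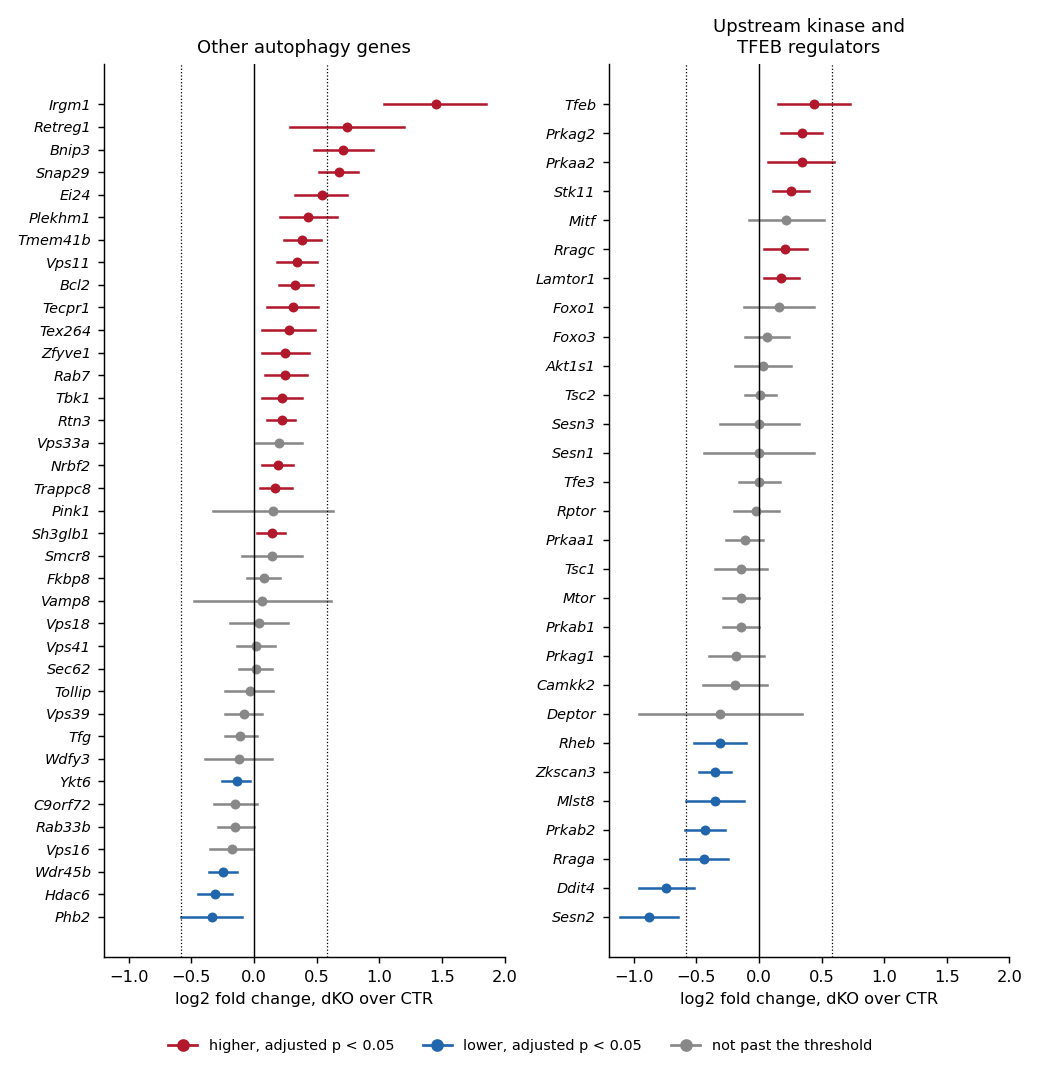
The log2 fold change (dKO over CTR, of FPKM + 1) of the other autophagy genes that passed the filter (left) and of the upstream regulators (right), with 95% confidence intervals and dotted lines at a change of 1.5-fold. On the left 18 genes rose and 4 fell, and on the right 6 rose and 7 fell.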

How the data were processed

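RNA of MLECs was measured in 12 libraries. The authors trimmed the reads, mapped them to mm39, extracted the uniquely aligned reads, mapped these again, and deposited FPKM per gene. The submitters' processing notes name Bowtie2 2.2.3, HISAT2 2.1.0, TopHat2 and DESeq2, whereas the study's methods name STAR and a different library kit; the extraction protocol in the labels speaks of retinas. The counting program, annotation and strand setting are not given in the sources used here. Columns named after tamoxifen were taken as dKO, the one group of the labels besides CTR.

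Since FPKM are not counts, log2(FPKM + 1) was tested with limma 3.58.1 in R 4.3.3 (lmFit, eBayes with trend, no block). Fragments behind each value were recovered from whole gene lengths and library totals, for depth and for limma-voom. For each gene a length was sought that made its values whole within 0.02 of a fragment. Such a length was found for all 28689 genes, and for 9335 it equalled the annotated exon length. Symbols came from GENCODE (GRCm39), with 27706 identifiers (96.6%) matched and 983 not, and promoters from RefSeq (GRCm38.p6), placed on GRCm39 by exact match. Copies were sought with BLAST 2.17.0 (a match of 150 bases, 95% identity and 50% of the copy). Steps were tested on simulated data. Tables were handled in Python 3.11.15 with pandas 2.3.3, NumPy 2.4.6 and numba 0.67.0, and plots drawn in Matplotlib 3.10.9.

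Members and gene lists were chosen with earlier results of these data known. Full values are given for members called with more than 1.5-fold change, for called members of the next largest change up to 8, and for Ulk1, Sqstm1, Map1lc3a and Map1lc3b; other members by fold change. From each pathway list, called genes past 1.5-fold are named. Genes named beyond this rule, such as Tfeb and the AMPK subunits, were chosen after their values were seen. Alternatives were pseudocounts of 0.1 and 0.01, 3 other filters on low values, rescaling to TPM, median-of-ratios scaling, quantile normalization, robust eBayes, exact permutation tests, limma-voom, leaving out each library, and a block on the replicate number. Protein sequences of the ATG8 family were not used here.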

Additional observations from a re-analysis of the deposited data

Results flagged for a closer look

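In 7 of 92 groups of 6 values (the 44 members, Sp1 and Sp3 in each group), 1 library stood far from the rest of its group, measured as its gap to the nearest library over the range of the group. Chance flags about 1 in 20 groups, or 4.6 of 92. In CTR libraries, Atg101 was at 25.2 FPKM (21.7 to 22.5 in the others) and Wipi2 at 9.87 FPKM (8.78 to 9.11) in replicate 4, Uvrag at 6.59 FPKM (5.52 to 5.75) in replicate 5, and Vmp1 at 82.1 FPKM (72.1 to 74.5) in replicate 2. In dKO libraries, Uvrag was at 9.64 FPKM (6.95 to 7.35) and Sqstm1 at 429 FPKM (289 to 338) in replicate 1, and Atg4a was at 11.8 FPKM (8.86 to 9.61) in replicate 6. Of these genes, Uvrag, Vmp1 and Atg4a were called, and each kept its call and sign without the library that stood apart.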

How the results depend on the processing

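Over 24 alternatives, 12 of which left out a library, 12 of the 14 called members kept their call and sign, and 14 members changed sign in at least 1, none of them called. Leaving out a library gave 12 to 16 members called, lowest without CTR replicate 3 or dKO replicate 3 and highest without CTR replicate 4 or dKO replicate 1. Members past 1.5-fold numbered 2 after quantile normalization and after rescaling to TPM, and 2 to 4 with a library left out. With the filter of at least 5 FPKM, which tests fewer genes, 8 upstream regulators and 4222 of all genes were called, in place of the 13 and 6614 of the reported fit. The median log2 fold change of the members was 0.065 with median-of-ratios scaling, which moved the median of all genes from −0.10 to −0.016. Sp3 passed the threshold after rescaling to TPM (−0.20, limma adjusted p = 0.0496) and, at −0.18, when CTR replicate 6 was left out (limma adjusted p = 0.0328), and it ranged from −0.18 to −0.11 over the left-out libraries; the cause was not tested. Atg2a lost its call in 10 alternatives and Atg4b in 9, and 6 members that were not called (Map1lc3b, Atg12, Ambra1, Wipi1, Gabarapl1 and Optn) were called in at least 1. With the replicate number as a block, 13 members were called, 12 of them the same as without it, 4 passed 1.5-fold, and 6955 of all genes were called; Atg2a (adjusted p = 0.05) and Atg4b (adjusted p = 0.064) were lost and Map1lc3b (adjusted p = 0.0182) was gained. Libraries with the same number correlated by 0.436, 0.156, −0.0446, 0.565, 0.0104 and −0.108 for replicates 1 to 6. CTR replicates 1 and 4 correlated best with the dKO library of their own number. CTR replicates 2, 3, 5 and 6 correlated best with a dKO library of another number. Whether libraries with the same number were handled together was not tested. Depth limits Atg16l2 most among the members, with 131 to 173 fragments in a library.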

Other observations

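The promoter windows of the members were also read for 2 other motifs, CACGTG, which TFEB can bind, and TGACNNNGC (both strands), the core of the antioxidant response element that NRF2 binds. CACGTG was found for 5 of 36 members with a window (13.9%), beside 11.9% of the tested genes with one. Atg7 held 1 match, Atg3 held 2, and Atg14, Atg5 and Rubcn held 1 each; of these 5 genes only Atg7 was called, and its window lay 9066 bases from the nearest annotated start. TGACNNNGC was found for 6 of 36 members (16.7%), beside 17.1% of the tested genes. Vmp1 and Ncoa4, both of which fell, were among the 6, and none of the 6 members that rose and had a window held it. A match of letters is a description and shows no binding.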
